A study of Mus musculus with 12 samples.

Results

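The genes described here are the inhibitors of cyclin-dependent kinases (CDKs) and the p53 and Mdm2 pair, 10 mouse genes found by mapping the Ensembl identifiers of the count table to the symbols Cdkn1a, Cdkn1b, Cdkn1c, Cdkn2a, Cdkn2b, Cdkn2c, Cdkn2d, Cdkn3, Trp53 and Mdm2. All 10 had a row among the 46078 genes of the table. They were chosen by name, with earlier results of these data known. They were measured by RNA sequencing of ventrolateral white matter cut from the spinal cord of C57Bl6 mice by laser capture microdissection. The 4 groups were young naive, middle-aged naive, young injured and middle-aged injured, each with 3 libraries, and each library held tissue pooled from 5 mice, so that n counts pools and the spread between mice in a pool was not measured. Injured tissue was taken 72 h after lysolecithin, a detergent that strips myelin, had been injected into the ventrolateral white matter. The naive groups had no such lesion, so that the injection itself and lysolecithin cannot be told apart. Mice called young were 6 weeks old and those called middle-aged 8 months old by the study's methods, and the labels state no age in numbers.

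CDK inhibitors are small proteins that bind cyclin-CDK complexes and hold cells before S phase. The Cip/Kip members p21 (Cdkn1a), p27 (Cdkn1b) and p57 (Cdkn1c) act on several cyclin-CDK complexes, whereas the INK4 members p15 (Cdkn2b), p16 (Cdkn2a), p18 (Cdkn2c) and p19 (Cdkn2d) bind only Cdk4 and Cdk6. The transcription factor p53 (Trp53) activates Cdkn1a and also Mdm2, the ubiquitin ligase that degrades p53, and the Arf protein read from Cdkn2a in another frame blocks Mdm2. Cdkn3 encodes a phosphatase that acts on CDKs and is itself transcribed mainly in dividing cells. In the oligodendrocyte lineage, p27 and p57 are known for their part in the exit of progenitors from the cell cycle.

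In the GRCm38 annotation, Cdkn1a lies at chr17:29090976-29100727, Cdkn1b at chr6:134920401-134925513 and Cdkn1c at chr7:143458339-143461050. Cdkn2a (chr4:89274471-89294653) and Cdkn2b (chr4:89306299-89311039) are neighbours, Cdkn2c lies on the same chromosome at chr4:109660876-109667189 and Cdkn2d at chr9:21288410-21291407. Cdkn3 lies at chr14:46760541-46771669, Trp53 at chr11:69580359-69591873 and Mdm2 at chr10:117688875-117710758. The counts cover all exons of a gene together, so coding and untranslated exons were not told apart.

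The promoters of the members that carry the results below were read from RefSeq sequence of build GRCm38.p6, as windows of 250 bases before and 50 bases after an annotated gene start. A window was given for 9 of the 10 members, and Cdkn1c had none. Both strands were searched for the E2F motifs TTTCCCGC and TTTGGCGC, the cell cycle homology region TTTGAA, the CCAAT box and the p53 consensus decamer. Among 32817 windows of the same length, TTTCCCGC was found in 1.07%, TTTGGCGC in 0.515%, TTTGAA in 17.9%, CCAAT in 37.4% and the p53 decamer in 8.36%. A full p53 site, with 0 to 13 bases between a pair of decamers, was found in 0.0731%. The windows are written 5′ to 3′ on the gene's strand, with matches to the E2F, TTTGAA and p53 motifs in capitals, and are shown to set the gene that p53 is best known to activate (Cdkn1a) beside the members whose levels moved most.
Cdkn1a, chr17:29090729-29091028, plus strand: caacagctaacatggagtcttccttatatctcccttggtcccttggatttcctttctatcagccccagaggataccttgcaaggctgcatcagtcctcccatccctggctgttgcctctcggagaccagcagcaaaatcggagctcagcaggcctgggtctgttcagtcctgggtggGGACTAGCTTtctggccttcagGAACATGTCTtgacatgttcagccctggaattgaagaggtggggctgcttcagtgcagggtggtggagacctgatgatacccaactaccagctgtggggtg
Cdkn2c, chr4:109666707-109667006, minus strand: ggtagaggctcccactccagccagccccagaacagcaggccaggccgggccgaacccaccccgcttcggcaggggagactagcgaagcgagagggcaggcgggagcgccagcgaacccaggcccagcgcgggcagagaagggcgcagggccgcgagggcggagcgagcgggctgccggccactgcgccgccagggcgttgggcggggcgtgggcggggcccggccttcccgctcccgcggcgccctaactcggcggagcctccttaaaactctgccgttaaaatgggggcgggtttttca
Cdkn3, chr14:46760291-46760590, plus strand: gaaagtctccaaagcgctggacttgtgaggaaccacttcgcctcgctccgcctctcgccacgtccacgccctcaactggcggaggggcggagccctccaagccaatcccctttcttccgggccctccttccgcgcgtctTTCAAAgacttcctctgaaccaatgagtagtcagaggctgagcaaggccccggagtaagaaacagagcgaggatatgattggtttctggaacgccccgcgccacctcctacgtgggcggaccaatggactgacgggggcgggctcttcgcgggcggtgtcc
Trp53, chr11:69580109-69580408, plus strand: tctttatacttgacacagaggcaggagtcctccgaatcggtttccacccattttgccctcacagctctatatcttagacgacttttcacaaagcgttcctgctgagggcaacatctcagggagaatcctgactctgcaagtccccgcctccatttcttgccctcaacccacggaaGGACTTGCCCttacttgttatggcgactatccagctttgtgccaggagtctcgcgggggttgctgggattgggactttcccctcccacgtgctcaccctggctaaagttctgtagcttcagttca
Mdm2, chr10:117710709-117711008, minus strand: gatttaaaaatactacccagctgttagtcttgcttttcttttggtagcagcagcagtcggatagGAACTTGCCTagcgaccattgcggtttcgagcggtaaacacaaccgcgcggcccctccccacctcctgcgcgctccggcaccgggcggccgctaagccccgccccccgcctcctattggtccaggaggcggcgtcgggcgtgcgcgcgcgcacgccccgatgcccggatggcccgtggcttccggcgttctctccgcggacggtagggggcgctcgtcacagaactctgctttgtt
The Cdkn1a window shown held a match to the full p53 site as searched, with decamers that begin at positions -73 and -51 from the gene start of that window. Only exact matches to the consensus were searched and capitalised, so a decamer with a differing base would be missed. The Cdkn3 window held 1 TTTGAA match at -111, and CCAAT matches at -149, -92, -34 and 10 that are left in lower case. The Trp53 and Mdm2 windows each held 1 p53 decamer, at -75 and -186, and the Cdkn2c window shown held none of the capitalised motifs. Of the windows not shown, that of the longer Cdkn2a transcript held TTTCCCGC at -99, that of Cdkn2b held TTTGAA at -161 and that of Cdkn2d held a p53 decamer at -102. A further window each of Cdkn1a (chr17:29093519-29093818), Cdkn2a (chr4:89282143-89282442) and Cdkn2c (chr4:109665323-109665622) held none of the capitalised motifs. A match says only that these letters occur there, and binding was not measured.

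The libraries held 9834447 to 12807437 counts, which puts 3 counts, taken as the floor of detection, at 0.234 to 0.305 CPM (counts scaled to the total of the library). Within groups, the correlation of log2 CPM between pools was 0.937 to 0.988 across genes. CPM below are scaled by the trimmed mean of M values (TMM), and a gene was called changed where the adjusted p (edgeR quasi-likelihood test, Benjamini-Hochberg over all 15866 genes tested) was under 0.05. The tissue label was checked against marker genes: the summed CPM of 6 oligodendrocyte markers was 86600 to 102000 in young naive, 52900 to 60200 in middle-aged naive, 18200 to 20200 in young injured and 7920 to 12400 in middle-aged injured pools. The summed CPM of 6 pan-myeloid markers ran the other way with injury, at 91.2 to 122, 139 to 188, 1710 to 1740 and 1760 to 2310 in the same order. All 6 oligodendrocyte markers fell and all 6 pan-myeloid markers rose with injury at both ages by the same test. They moved with every injury result below, and their part in those results was not tested. In such tissue, fewer cells of a type and less RNA per cell cannot be told apart.

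After injury, 4 of the 9 members that were tested rose and 1 fell in young mice, and 4 rose and 2 fell in middle-aged mice. Cdkn2c, Cdkn3, Trp53 and Mdm2 rose at both ages and Cdkn1c fell at both, whereas Cdkn1b fell by the test in middle-aged mice. Cdkn1a, the classical p53 target, was called at neither age, nor were Cdkn2b and Cdkn2d. The background was broad: 54.6% of all genes tested were called in young mice (28.3% higher, 26.3% lower) and 58.5% in middle-aged mice (29.2% higher, 29.3% lower), so that 5 and 6 of 9 members called is close to the share of all genes. Cdkn3 passed the filter on low counts only through the injured groups, and without it 3 of 8 members rose at each age. The median log2 fold change of the 9 members was 0.21 in young and 0.20 in middle-aged mice, against 0.00054 and -0.032 over all genes. The 10th member, Cdkn2a, was too low to be tested.

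**Figure D1:**
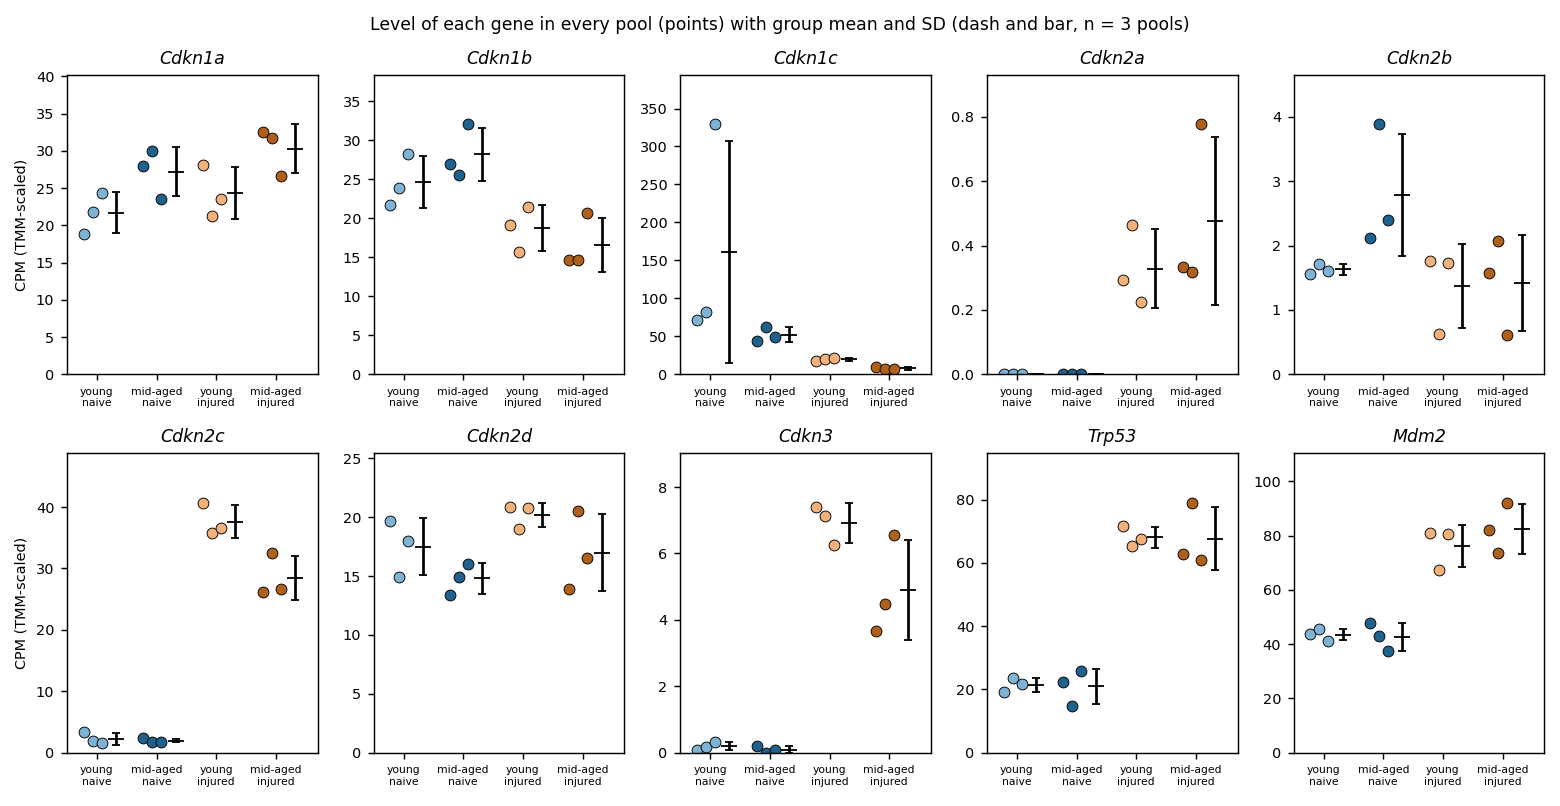
Level of each of the 10 genes (vertical axis, TMM-scaled CPM from 0, with a scale of its own in each panel) in the 3 pools of each group (points), with the group mean and SD (dash and bar). The injured pools of Cdkn2c, Cdkn3, Trp53 and Mdm2 all lie above the naive pools, those of Cdkn1c all lie below, and 1 young naive pool of Cdkn1c stands at 329 CPM, far above the others.

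Cdkn1c, which encodes p57, was the most abundant of these genes per length in naive white matter and fell furthest. It stood at 71.1, 81.6 and 329 CPM in the young naive pools, against 17.4, 20.7 and 21.5 CPM in the young injured pools. In middle-aged mice it stood at 43.3, 62.7 and 49.3 CPM in naive and at 9.53, 7.18 and 6.64 CPM in injured pools. The 4 groups did not overlap, and their order was young naive, middle-aged naive, young injured and middle-aged injured. Young naive replicate 3 stood apart, with a log2 gap of 2.01 to the next pool of its group. A gap at least that large above both other pools was seen for 37 of the genes tested in replicate 3, and for 11 and 9 genes in replicates 1 and 2.

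The level of Cdkn1c fell 8.08-fold in young mice (log2 fold change -3.01, SE 0.46, edgeR adjusted p = 6.63e-05) and 6.64-fold in middle-aged mice (log2 fold change -2.73, SE 0.48, edgeR adjusted p = 0.000202). Without young naive replicate 3, the young effect was -1.94 (SE 0.19, edgeR adjusted p = 2.45e-06). The direction held in every pool, and the size in young mice rests on that 1 pool. Cdkn1c followed the oligodendrocyte markers, which also took the 4 groups in the same order with no overlap, and the part of these cells in its fall was not tested. The 3 tested genes whose log2 CPM was most like it over the 12 pools were Tenm4 (Pearson r = 0.98), Gal3st1, which makes the myelin lipid sulfatide (r = 0.978), and Gna12 (r = 0.977), among 13552 genes searched. These r values are a description, since all pools of a group share their treatment. Of the 31-base stretches of its longest transcript, 28.4% also occur in the antisense gene Gm44732, which shares 625 exonic bases with it on the opposite strand. Gm44732 was not among the rows of the count table and the strand setting of the counting is not given in the sources used here, so reads of this pair cannot be told apart.

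Cdkn1b, which encodes p27, fell in middle-aged mice and was lower, without passing the test, in young mice. It stood at 21.7, 23.9 and 28.2 CPM in young naive and at 19.1, 15.6 and 21.4 CPM in young injured pools. The middle-aged naive pools held 27, 25.5 and 32 CPM and the injured pools 14.6, 14.7 and 20.6 CPM. At both ages every injured pool lay below every naive pool, narrowly so in young mice. The log2 fold change was -0.76 in middle-aged mice (SE 0.19, edgeR adjusted p = 0.00324) and -0.40 in young mice (SE 0.19, edgeR adjusted p = 0.0889, 95% interval -0.80 to 0.01). The 2 effects differed by -0.36 (SE 0.27, edgeR adjusted p = 0.713), so no difference between ages was shown. With labels exchanged within each age, a 2-sided exact permutation test over all 12 pools gave p = 0.005, the smallest its 400 arrangements allow.

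Cdkn1a, which encodes p21, changed little at either age. It stood at 18.9, 21.8 and 24.4 CPM in young naive and at 28.1, 21.2 and 23.5 CPM in young injured pools. In middle-aged mice the naive pools held 28, 30 and 23.5 CPM and the injured pools 32.5, 31.8 and 26.6 CPM. Naive and injured pools overlapped at both ages. The log2 fold change was 0.16 at both (SE 0.17), with 95% intervals of -0.20 to 0.52 in young and -0.20 to 0.51 in middle-aged mice, so that a rise of more than 0.52 is outside both. The edgeR adjusted p was 0.436 and 0.429, and the exact permutation test over both ages gave p = 0.16. Of the 31-base stretches of its longest transcript, 11.3% occur in other genes, and 273 exonic bases overlap a gene on the opposite strand.

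Among the INK4 genes, Cdkn2c (p18) went from near the lowest to among the highest. The young naive pools held 3.37, 1.81 and 1.61 CPM and the young injured pools 40.7, 35.7 and 36.6 CPM. The middle-aged naive pools held 2.30, 1.78 and 1.76 CPM and the injured pools 26.2, 32.5 and 26.6 CPM. Naive and injured pools were far apart at both ages, with every middle-aged injured pool below every young injured pool. The rise was 16.4-fold in young mice (log2 fold change 4.04, SE 0.25, edgeR adjusted p = 9.26e-09) and 14.6-fold in middle-aged mice (log2 fold change 3.86, SE 0.25, edgeR adjusted p = 1.37e-08). In rank of log2 fold change it was 636th of 15866 genes in young and 593rd in middle-aged mice. The genes most like it over the 12 pools were Sept11 (r = 0.996), Pik3cg, a phosphoinositide kinase subunit known from leukocytes (r = 0.995), and Ddx31 (r = 0.994). The pan-myeloid markers rose with it, as given above, and their part in the rise was not tested.

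Cdkn2d (p19), the most abundant INK4 gene in naive tissue, was not called. It ranged from 14.9 to 19.7 CPM in young naive, 13.4 to 16 in middle-aged naive, 19 to 20.9 in young injured and 13.9 to 20.5 in middle-aged injured pools. The log2 fold change with injury was 0.21 in young mice (SE 0.18, 95% interval -0.18 to 0.59) and 0.20 in middle-aged mice (SE 0.18, 95% interval -0.19 to 0.59). Cdkn2b (p15) was low, with 7 to 37 counts per pool, and was not called either. Its naive pools held 1.55 to 1.72 CPM in young and 2.11 to 3.88 CPM in middle-aged mice, and its injured pools 0.619 to 1.76 and 0.604 to 2.07 CPM. The log2 fold change of Cdkn2b was -0.24 (SE 0.50) in young and -0.96 (SE 0.49, edgeR adjusted p = 0.105) in middle-aged mice, where the naive and injured pools did not overlap. At these counts, the 95% interval in young mice ran from -1.32 to 0.83 and did not separate a fall from a rise.

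Cdkn2a, which encodes p16 and Arf, was seen only in injured tissue, and barely. It had 0 counts in each of the 6 naive pools. The young injured pools held 4, 6 and 3 counts and the middle-aged injured pools 4, 4 and 9 counts, or 0.226 to 0.776 CPM. No fold is given, since the injured levels were themselves close to the floor of 3 counts in a library. The exact permutation test over both ages gave p = 0.005. Counts per gene cannot separate p16 from Arf, and a count of 0 here allows the gene to be present at up to 0.305 CPM in the shallowest library.

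The makeup of CDK inhibitor RNA thus differed between naive and injured tissue. Levels were put on a per-length scale, CPM per kilobase of the gene's union exons (RPKM), and each gene's share of the sum over the 7 Cip/Kip and INK4 genes was taken. Cdkn1c held a mean of 69.3% of that sum in young naive pools (58.3 to 86%) and 49.2% in middle-aged naive pools (46.2 to 53.3%), against 20% in young injured (16.9 to 22.2%) and 9.92% in middle-aged injured pools (8.26 to 12.6%). Cdkn2c went from 1.16% and 1.44% in naive to 28.7% and 27.2% in injured pools, in young and middle-aged mice in that order. Cdkn2d then held a like share of 26.3% and 27.7%, and Cdkn1a held 14% and 22%. With the longest transcript as the length, an alternative chosen after seeing the data, Cdkn1a held 20.4% and 30.8%, and in middle-aged injured pools it passed Cdkn2d (25.1%) and Cdkn2c (24.3%). The summed level was 103 RPKM (59.8 to 188) in young naive, 51.3 (46 to 57.7) in middle-aged naive, 48.8 (45.8 to 50.5) in young injured and 38.8 (36.7 to 42.6) in middle-aged injured pools. Without young naive replicate 3, the young naive mean was 61.3 RPKM and the share of Cdkn1c there 61%, so the gap in summed level between the naive groups rests mostly on that pool. A share can rise because another gene falls, as the values of Cdkn2d show.

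**Figure D2:**
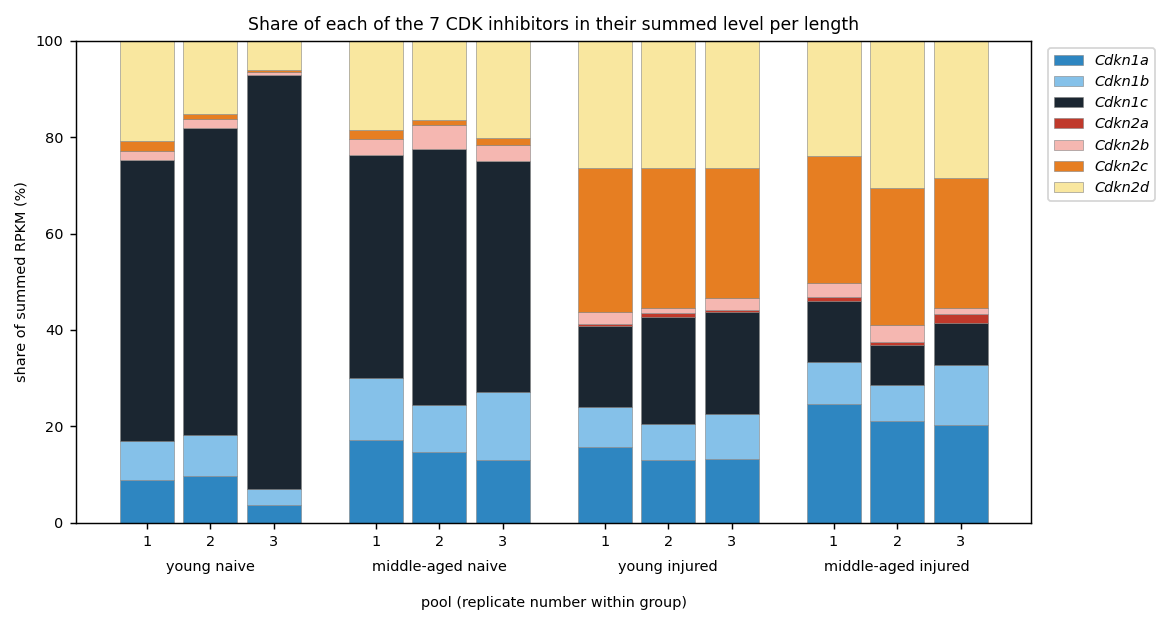
Share of each of the 7 CDK inhibitors in their summed RPKM (vertical axis, percent), 1 bar per pool, in the 4 groups. Cdkn1c takes 46.2 to 86% of the naive bars and 8.26 to 22.2% of the injured bars, where Cdkn2c and Cdkn2d take most of the rest.

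Cdkn3 was close to absent in naive tissue and rose furthest. The young naive pools held 1, 2 and 3 counts and the middle-aged naive pools 2, 0 and 1 counts. The young injured pools held 101, 92 and 83 counts (7.40, 7.12 and 6.24 CPM), and the middle-aged injured pools 44, 56 and 76 counts (3.65, 4.47 and 6.55 CPM). The ratio of summed levels was 36.2 in young mice (276 counts against 6, 95% counting interval 16.4 to 99.4) and 52.7 in middle-aged mice (176 counts against 3, interval 17.7 to 258). Cdkn3 passed the filter on low counts only through the injured groups, so that a gene of this kind had to differ, and its fitted values are given as a description. The fitted log2 fold changes were 5.09 (SE 0.50, edgeR adjusted p = 9.19e-07) and 5.57 (SE 0.56, edgeR adjusted p = 9.97e-07). The genes most like Cdkn3 over the 12 pools were Diaph3 (r = 0.995), a formin, Kif20a (r = 0.994), a mitotic kinesin, and Spc25 (r = 0.993), a kinetochore protein.

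Trp53 and Mdm2 rose together at both ages. Trp53 stood at 19.2, 23.5 and 21.6 CPM in young naive and at 71.6, 65.2 and 67.5 CPM in young injured pools. It stood at 22.2, 14.7 and 25.7 CPM in middle-aged naive and at 62.8, 79 and 61 CPM in middle-aged injured pools. Mdm2 stood at 43.8, 45.5 and 41.2 CPM in young naive, 80.9, 67.3 and 80.6 in young injured, 47.9, 42.8 and 37.5 in middle-aged naive and 82, 73.5 and 92.1 in middle-aged injured pools. No injured pool of either gene overlapped a naive pool. Trp53 rose 3.18-fold in young mice (log2 fold change 1.67, SE 0.18, edgeR adjusted p = 3.07e-06) and 3.23-fold in middle-aged mice (1.69, SE 0.18, edgeR adjusted p = 2.38e-06). Mdm2 rose 1.75-fold (log2 fold change 0.81, SE 0.13, edgeR adjusted p = 0.000145) and 1.93-fold (0.95, SE 0.13, edgeR adjusted p = 3.03e-05). Per length, the ratio of Mdm2 to Trp53 was 1.63 (1.52 to 1.81) in young naive and 1.73 (1.16 to 2.32) in middle-aged naive pools, against 0.89 (0.821 to 0.95) and 0.993 (0.74 to 1.2) in young and middle-aged injured pools. The ranges of naive and injured pools did not overlap in young mice and overlapped in middle-aged mice. Of the 31-base stretches of the longest Trp53 transcript, 9.49% also occur in other genes.

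**Figure D3:**
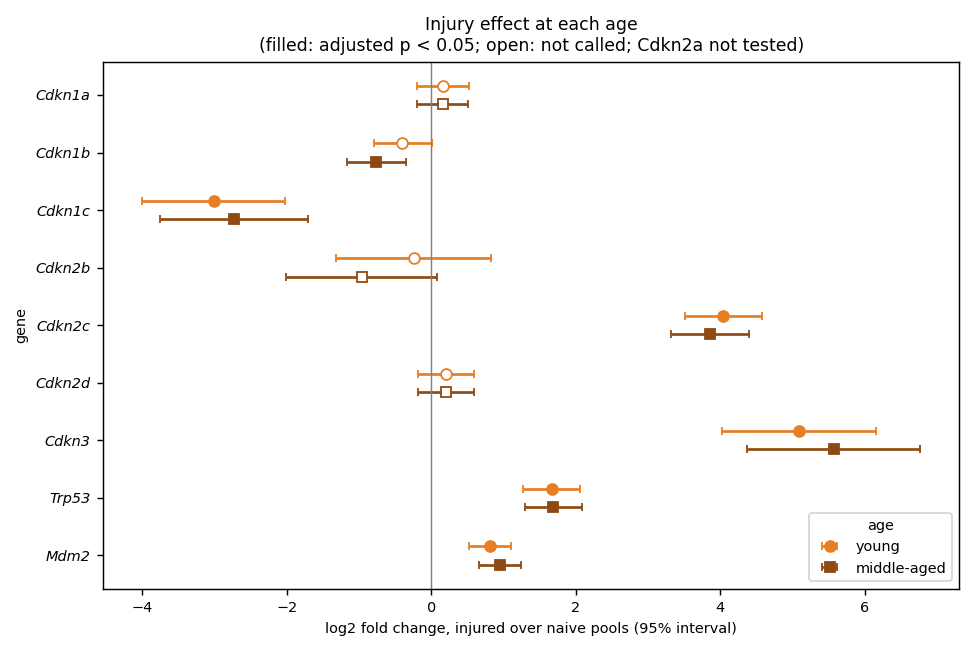
Log2 fold change of injured over naive pools (horizontal axis) with its 95% interval for the 9 members tested, in young (circles) and middle-aged mice (squares), filled where the edgeR adjusted p was under 0.05. The intervals at the 2 ages overlap for every gene, and those of Cdkn1a, Cdkn2b and Cdkn2d cross 0 at both ages.

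Per length, the order of the genes changed with injury. In young naive pools the mean RPKM was 78.8 ± 71.6 (SD, n = 3) for Cdkn1c, 11.1 ± 1.52 for Cdkn2d, 8.56 ± 0.418 for Mdm2 and 6.11 ± 0.768 for Cdkn1a. Cdkn1b (5.41 ± 0.727) and Trp53 (5.29 ± 0.527) followed and lay within 1 SD of each other, and Cdkn2b, Cdkn2c and Cdkn3 came next at 1.17, 0.843 and 0.0836 RPKM. In young injured pools Trp53 led at 16.8 ± 0.805 RPKM, followed by Mdm2 at 15 ± 1.53, Cdkn2c at 14 ± 0.992 and Cdkn2d at 12.9 ± 0.654. The pools of Trp53 all lay above those of Mdm2, those of Mdm2 and Cdkn2c overlapped, and those of Cdkn2c and Cdkn2d met at 13.3 RPKM. Cdkn1c followed at 9.74 ± 1.07 RPKM. In middle-aged mice the naive order began with Cdkn1c (25.4 ± 4.86 RPKM), Cdkn2d (9.38 ± 0.817), Mdm2 (8.40 ± 1.03) and Cdkn1a (7.64 ± 0.935), and the injured order with Trp53 (16.7 ± 2.46), Mdm2 (16.2 ± 1.83), Cdkn2d (10.8 ± 2.11) and Cdkn2c (10.6 ± 1.33), where each of these 2 injured pairs lay within 1 SD of each other. With the longest transcript in place of the union of exons as the length, Mdm2 (24.2 RPKM) came before Trp53 (20.8 RPKM) in young injured pools and before Cdkn2d in both naive groups (13.8 against 12.3 and 13.6 against 10.4 RPKM). Cdkn1a (14.6 RPKM) then came before Cdkn2d (11.9) and Cdkn2c (11.5) in middle-aged injured pools. The order of neighbours therefore depends on the length used, whereas Cdkn1c came first in naive pools with either length.

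Age alone moved none of the 9 members past the threshold. In naive tissue 0 members were called by edgeR (1 at an unadjusted p under 0.05, and 1 by DESeq2), against 3.8% of all genes. In injured tissue 0 were called (1 at an unadjusted p under 0.05, and 0 by DESeq2), against 1.15% of all genes. The gene behind each of these was Cdkn1c. It was lower in middle-aged than in young mice, with a log2 fold change of -1.63 in naive (SE 0.43, edgeR adjusted p = 0.0522) and -1.35 in injured tissue (SE 0.47, edgeR adjusted p = 0.27). Without young naive replicate 3, the naive difference of Cdkn1c shrank to -0.56 (SE 0.19, edgeR adjusted p = 0.133), whereas the injured difference, whose levels do not include that pool but whose estimate of the spread does, stayed at -1.35 and passed the test (SE 0.19, edgeR adjusted p = 0.00528). The summed oligodendrocyte markers were also lower in all middle-aged pools than in all young pools of the same state, and their part in this difference was not tested.

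Besides Cdkn1c, the pools of the 2 ages did not overlap for Cdkn2b in naive tissue, where middle-aged pools were higher (log2 fold change 0.77, SE 0.49, edgeR adjusted p = 0.429), and for Cdkn2c in injured tissue, where they were lower (-0.40, SE 0.20, edgeR adjusted p = 0.581). Pools that do not overlap were seen for 17.1% of all genes in naive and 23.2% in injured tissue, and for 67.2% and 61.1% in the injury comparisons of young and middle-aged mice, where 6 and 7 of 9 members showed it. Trp53 was level between ages, at -0.03 in naive (95% interval -0.43 to 0.37) and -0.01 in injured tissue (-0.39 to 0.37), and Mdm2 differed by -0.03 (-0.32 to 0.26) and 0.11 (-0.17 to 0.40). Cdkn1a was higher in middle-aged mice by 0.32 in both states (SE 0.17), without passing the test (edgeR adjusted p = 0.329 and 0.61). The injury effect differed between ages for 0 members by edgeR, with 0 at an unadjusted p under 0.05 and 0 by DESeq2, against 0.139% of all genes. The widest interval of such a difference was -1.32 to 2.27 for Cdkn3, and the narrowest -0.27 to 0.55 for Mdm2.

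Most of the kinases and cyclins that these inhibitors act on rose with injury. Of 15 genes in a list of G1 cyclins, CDKs and pocket proteins, 13 rose and 1 fell at each age. The list also held Ccna2, Ccnb1, Ccnb2 and Cdk1, which act later in the cell cycle. Over all genes, 54.6% were called in young and 58.5% in middle-aged mice. The median log2 fold change of the 15 was 2.33 in young and 2.71 in middle-aged mice. Cdk4, a target of the INK4 proteins, rose by 0.64 in young mice (edgeR adjusted p = 0.000965) and by 0.92 in middle-aged mice (3.73e-05). Its partner kinase Cdk6, named here after its values were seen, rose by 4.12 and 4.01, about as much as its inhibitor Cdkn2c. The mitotic cyclin Ccnb2 rose by 6.25 and 8.25 and its kinase Cdk1 by 5.31 and 6.87. Ccnb2 had naive means of 0.663 and 0.117 CPM and passed the filter on low counts only through the injured groups, so its rise is a description. Ccne1, which encodes cyclin E1, was not called at either age (0.83, edgeR adjusted p = 0.0652, and -0.34, edgeR adjusted p = 0.427). The gene that fell was Rbl2, a pocket protein of resting cells, at -0.65 and -0.87. In naive tissue, 4 genes of this list were lower in middle-aged mice (Ccnb1 at -2.94, Ccnb2 at -2.35, Ccna2 at -1.82 and Cdk1 at -1.72). All 4 are the later cell cycle genes named above. The G1 gene Ccne1 was higher (1.56), and Ccnd1, Ccnd2, Ccnd3, Cdk4 and Cdk6 were not called. None of the list was called between ages in injured tissue. The 5 calls in naive tissue, against 3.8% of all genes, became 3 without young naive replicate 2 or middle-aged naive replicate 2. They became 0 with only the pools compared.

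Of 8 genes of the E2F family, 5 rose at each age and 1 fell in middle-aged mice, against 54.6% and 58.5% of all genes called. E2f7 rose by 5.78 and 6.83, E2f8 by 2.76 and 4.36 and E2f2 by 2.85 and 3.36, in young and middle-aged mice in that order. At naive means of 0.168 and 0.0533 CPM, E2f7 passed the filter on low counts only through the injured groups, so its rise is a description. The gene that fell was E2f6, at -0.39, and with DESeq2's size factors it was not called. Of 20 proliferation genes, 20 rose in young and 19 in middle-aged mice, against 28.3% and 29.2% of all genes. Naive means in young and middle-aged mice were 0.416 and 0.347 CPM for Aurkb, 0.41 and 0.47 for Birc5 and 0.746 and 0.227 for Plk1. Like Cdkn3, these genes passed the filter on low counts only through the injured groups. The counts of rising genes are thus partly set by the filter and are a description. The medians of the 20 were 4.37 and 4.60. Among them Mki67, the cell division marker, rose by 5.45 and 6.98, and Pcna, the clamp of DNA polymerase, by 1.51 and 1.71. Without any of 3 single pools (young naive replicates 2 and 3, young injured replicate 1), the E2F genes called in young mice were 3 in place of 5. In naive tissue, 1 E2F gene (E2f8, -1.97, edgeR adjusted p = 0.00522) and 2 proliferation genes were lower in middle-aged mice, against 3.8% of all genes called. Mki67 was among the latter (-1.87, edgeR adjusted p = 0.0331). Under other settings these counts ran from 0 to 3 and 0 to 4, and without 1 pool from 1 to 3 in both lists.

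More p53 targets rose than fell, whereas Cdkn1a did not pass the test. Of 24 p53 target genes other than the members, 13 rose and 1 fell in young mice and 15 rose and 3 fell in middle-aged mice, with medians of 0.64 and 0.88. The 14 and 18 of 24 called compare with 54.6% and 58.5% of all genes. The death receptor gene Eda2r rose by 3.01 and 3.25, the apoptosis gene Pmaip1 (Noxa) by 3.00 and 3.14 and Pidd1 by 3.00 and 3.59. Pidd1 had naive means of 0.41 and 0.306 CPM and passed the filter on low counts only through the injured groups, so its rise is a description. Phlda3, which restrains Akt, fell by 0.74 in young mice, and Perp, a desmosome gene, fell by 1.07 in middle-aged mice. In this list 17 of 24 genes had a larger log2 fold change than Cdkn1a at each age. Many of these genes respond to other factors as well. With library totals alone as the scale, which moved the median of all genes by 0.2 in young and 0.11 in middle-aged mice, 16 rose and 1 fell in middle-aged mice. Between ages, 1 gene of the list, Gadd45a, was higher in middle-aged injured pools (log2 fold change 0.82, edgeR adjusted p = 0.0387), and this call was lost with library totals alone, with the replicate block, and without young naive replicate 2 or any 1 of the 6 injured pools.

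Of 14 p53 partners and modifiers tested, 4 rose and 1 fell in young mice and 3 rose and 1 fell in middle-aged mice. The 5 and 4 of 14 called are a smaller share than the 54.6% and 58.5% of all genes. The checkpoint kinase genes Chek1 and Chek2 rose by 2.53 and 2.45 in young mice and by 2.41 and 1.82 in middle-aged mice. Kat5, an acetyltransferase that modifies p53, was at -0.61 and -0.68 and passed the test at both ages. With library totals alone, 6 rose and 0 fell in young mice, and 6 rose and 1 fell in middle-aged mice, so that the call of Kat5 in young mice depends on the scale.

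Genes that act in the turnover of p27 moved both ways. Of 7, 3 rose and 2 fell at each age, against 54.6% and 58.5% of all genes called in young and middle-aged mice. Those that rose were Skp2, the ubiquitin ligase subunit that recognises p27 (2.05 and 2), and its cofactor Cks1b (3.72 and 3.11) with its relative Cks2 (3.77 and 3.43). Those that fell were Skp1a, a shared ligase subunit (-0.57 and -0.79), and Fbxw7, which recognises cyclin E (-0.84 and -1.10). In naive tissue, 1 gene of the 7 was higher in middle-aged mice, against 3.8% of all genes called, and this call was lost in 11 of 21 alternatives. RNA of these genes says nothing of the p27 protein, which was not measured.

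The Polycomb genes, whose products hold the Cdkn2a and Cdkn2b locus silent in many cells, also moved both ways. Of 10, 5 rose and 3 fell in young mice, and 4 rose and 3 fell in middle-aged mice. The 8 and 7 of 10 called compare with 54.6% and 58.5% of all genes. The methyltransferase gene Ezh2 rose by 2.21 and 2.37, Rnf2 by 1.09 and 1.41 and Eed by 1.12 and 1.08. Its relative Ezh1 fell (-0.95 and -1.46), as did Cbx7 (-1.83 and -2.55) and Ring1 (-0.70 and -1). In naive tissue, Cbx7 and Ezh1 were higher in middle-aged mice, by 0.87 (edgeR adjusted p = 0.0045) and 0.52 (edgeR adjusted p = 0.0274). These 2 calls, against 3.8% of all genes, became 1 with no filter on low counts. They also became 1 without young naive replicate 1, young naive replicate 2 or middle-aged naive replicate 3, and 0 with only the pools compared.

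**Figure D4:**
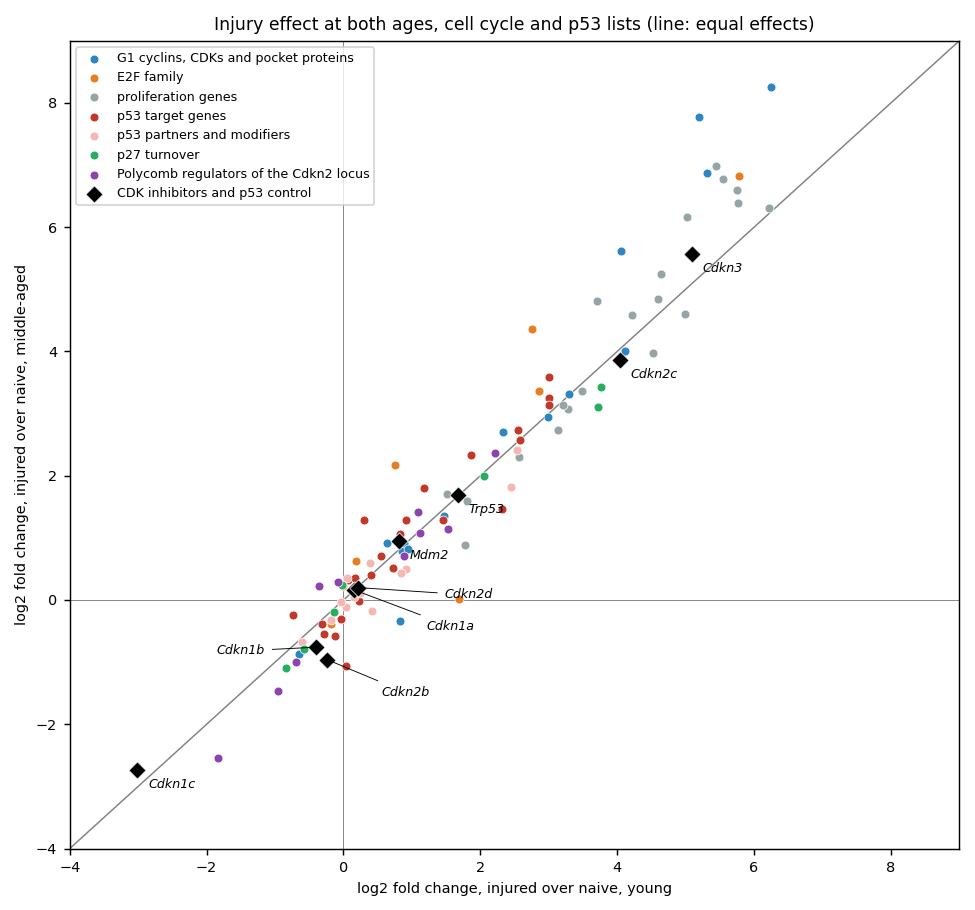
Log2 fold change of injured over naive pools in young (horizontal axis) and middle-aged mice (vertical axis) for the 9 members tested (black diamonds, named) and the genes of 7 lists (coloured points), with the line of equal effects. Cdkn3 and Cdkn2c lie among the proliferation genes at the upper right, Trp53 and Mdm2 lie between them and 0, and Cdkn1c lies furthest to the lower left, beyond the Polycomb gene Cbx7.

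The members that rose also followed each other over the 12 pools, with a Pearson r of log2 CPM of 0.97 between Cdkn2c and Cdkn3 and 0.92 between Trp53 and Mdm2. After the mean of each group was taken away, these were -0.27 and -0.28. The gene most like Trp53 over the 12 pools was Tcim (r = 0.995) and that most like Mdm2 was Naa50 (r = 0.988), followed by Cebpg (r = 0.984), a stress-response transcription factor. For Cdkn1b it was Apc (r = 0.945), for Cdkn2b Fig4 (r = 0.894), for Cdkn2d Mta1 (r = 0.861) and for Cdkn1a Uso1 (r = 0.855). All pools of a group share a treatment and an age, so a high r over the 4 groups describes a shared step between groups and no more.

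Several other cell types in the capture moved as well. The summed CPM of 3 oligodendrocyte progenitor markers was 172 to 228 in young naive, 121 to 129 in middle-aged naive, 270 to 350 in young injured and 201 to 223 in middle-aged injured pools. That of 3 fibroblast markers was 11.2 to 20.4, 15.3 to 30.2, 235 to 399 and 166 to 302, and that of 4 astrocyte markers 7660 to 9820, 7980 to 8670, 4210 to 4830 and 3110 to 4370, in the same order. That of 4 neuronal markers was 680 to 1970, 1160 to 1240, 274 to 479 and 363 to 445. Most of it was Snap25, with means of 1270, 1160, 355 and 375 CPM in the same order. By the edgeR test, 2 of the 4 fell and 2 were not called in young mice. In middle-aged mice 3 fell and Slc17a6 rose (log2 fold change 1.52, edgeR adjusted p = 0.00918). The summed CPM of 3 endothelial markers was 106 to 138, 157 to 183, 111 to 138 and 152 to 173 in that order of groups. These naive and injured ranges overlapped at each age. By the edgeR test, 1 of the 3 endothelial markers rose at each age, and 1 fell in middle-aged mice. Schwann cell markers were at or near 0 in naive pools (0.0959 to 1.89 CPM over 3 genes), with Pmp2 at 0 in every middle-aged pool. Which of these cells carried the RNA of each gene was not measured, and the part of the lists in the results was not tested.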

How the data were processed

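White matter from 12 pools (3 in each of 4 groups, 5 mice per pool) was laser captured, and libraries of REPLI-g amplified RNA were read on a NextSeq500. According to the submitters' processing notes, the authors checked reads with FastQC 0.11.4, mapped them to GRCm38 with TopHat2 2.0.10 and Bowtie 1.1.2, and deposited raw counts per gene from featureCounts. The annotation release and strand setting are not given in the sources used here. Groups and replicate numbers came from the labels.

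The tests ran on these counts with edgeR 4.0.16 under R 4.3.3 (TMM, filterByExpr with a minimum count of 10, glmQLFit, glmQLFTest), with 1 coefficient per group, all 12 pools in the fit and Benjamini-Hochberg adjustment over 15866 genes. Contrasts were injury at each age, age in each state, and their difference. Log2 CPM used a prior count of 2. Intervals are 95%, and those from counts cover counting error only. Nothing says whether pools were processed apart, so p-values measure the spread between these pools. Exact permutation tests were 2-sided. The young injury test was also run on simulated counts with 200 genes changed. This is far fewer than were called after injury, so it does not test the fit under changes that broad. Alternatives were 4 other scalings, 2 other filters, DESeq2 1.42.0, the replicate number as a block, each pool left out and only the pools compared, with shares also from the longest transcript and without young naive replicate 3 (both added after the data were seen).

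Members and lists were chosen with earlier results of these data known. From each list, up to 3 called genes at each end of the log2 fold changes (mean log2 CPM of at least 1) could be named per injury comparison, up to 3 called genes per direction for age, and the 3 genes most alike to each member. Cdk6 was added after its values were seen.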

Additional observations from a re-analysis of the deposited data

How the results depend on the processing

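For the 9 members tested, 45 values were recomputed under up to 9 other settings and with each of 12 pools left out. No called value was lost or changed direction. The members called in injury were 5 to 6 in young and 6 to 7 in middle-aged mice, where Cdkn2a was added with no filter on low counts. The age counts of 0 became 1 in naive tissue with no filter on low counts and with DESeq2, and 1 in injured tissue with no filter and with only the pools compared, and without 1 pool they were 0 to 1 in both. The gene was Cdkn1c each time: in naive tissue -1.64 with no filter (edgeR adjusted p = 1.23e-06) and by DESeq2 (adjusted p = 0.0395), -1.99 without young naive replicate 1 (edgeR adjusted p = 0.0221) and -1.95 without replicate 2 (0.0362), and in injured tissue -1.35 with no filter (edgeR adjusted p = 0.000659) and with only the pools compared (0.0013). Replicate numbers did not pair the pools: deviations of same-numbered pools correlated at -0.11 to 0.15, over 0.1 in 2 of 18 pairs, and 5 of 12 pools correlated best with their own number. With the replicate block, Cdkn1b was called in young mice (-0.40, edgeR adjusted p = 0.0422) and no other member call changed. All reversals concerned uncalled values, and the difference of injury effects of Cdkn1c reversed to -0.79 without young naive replicate 3. The age difference of Cdkn2b in injured tissue was -0.01 with library totals alone and -0.02 with the replicate block, and the difference of injury effects was 0.01 for Cdkn2d with DESeq2's size factors and -0.07 for Trp53 with library totals alone. Without 1 pool the ranges that crossed 0 were, for young injury, -0.46 to 0.11 for Cdkn2b, for age in naive tissue, -0.41 to 0.18 for Cdkn2c, -0.21 to 0.16 for Trp53, -0.12 to 0.06 for Mdm2, for age in injured tissue, -0.32 to 0.42 for Cdkn2b, -0.13 to 0.07 for Trp53, for the difference of injury effects, -0.79 to 0.64 for Cdkn1c, -0.58 to 0.01 for Cdkn2c, -0.17 to 0.12 for Cdkn2d, -0.17 to 0.2 for Trp53. The causes were not tested. Over all genes, 603 calls for age in naive tissue became 1153 with no filter, 1111 with DESeq2 and 71 with only the pools compared, 182 in injured tissue became 437, 458 and 818, and 22 for the difference of injury effects became 329 with no filter and 254 with DESeq2. Without 1 pool these were 261 to 800, 45 to 410 and 3 to 56, so the shares of all genes called for them are rough. Counts were low for Cdkn2a (0 to 9 per pool), naive Cdkn3 (0 to 3), Cdkn2b (7 to 37) and naive Cdkn2c (15 to 37).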
